A study of Homo sapiens with 2 samples.

Results

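CHLA9, an established Ewing sarcoma cell line, was described from the single cells of its 1 library. Its cells were the barcodes with at least 5000 unique molecular identifiers (UMIs, each a counted RNA molecule), at least 2000 genes and at most 15% of UMIs from mitochondrial genes. Of 5077 CHLA9 barcodes, 4524 passed, which is 89.1% (exact 95% Clopper-Pearson interval 88.2 to 90). Together with the library of TC71, the line used for comparison, there were 13545 barcodes. Of the 553 CHLA9 barcodes left out, 277 had too few UMIs, 95 more had too few genes and 181 more had too many mitochondrial UMIs.

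The study set Ewing sarcoma beside normal developmental tissues and profiled its lines with 3′ droplet single-cell RNA-seq. The line used here for comparison was TC71, another Ewing sarcoma line, of which 1729 of 8468 barcodes passed the same limits. Neither line was treated. CHLA9 was grown in IMDM with 20% FBS and 1% ITS supplement and sequenced on 2 instruments, while TC71 was grown in RPMI with 10% FBS and sequenced on 1 of them, so line, medium and sequencing cannot be told apart. With 1 library per line no difference had a replicate check. All intervals are exact at 95% and cover counting error only, and no p-value is given.

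The kept CHLA9 cells held 174975302 UMIs and the kept TC71 cells 58355173. Their depths were alike, with a median of 34656 UMIs per CHLA9 cell and 33370 per TC71 cell, and median mitochondrial shares of 7.59% and 9.05%. The libraries shared 16 barcodes, 3 of them among kept cells. Levels are UMIs summed over kept cells and scaled to counts per 1000000 (CPM). One CPM is 175 UMIs in CHLA9 and 58.4 in TC71. The assay counts transcript ends, so levels were not divided by gene length. Genes of the sex chromosomes were left out.

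EWSR1-FLI1 is the chimeric transcription factor that drives most Ewing sarcomas. It binds GGAA repeats and single ETS sites, switching on some genes and silencing others, and the tumour cells carry a mixture of neural and mesenchymal features. Lines that share the fusion can still differ in the lineage genes they use, and such genes give a line its identity.

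The 4 genes chosen as markers of CHLA9 were all high in CHLA9 and at or near 0 in TC71. CCK, which encodes the neuropeptide cholecystokinin and is a known target of the fusion, had 1671 CPM (1665 to 1678) in CHLA9 and 0.840 (0.621 to 1.11) in TC71. KRT17, a basal epithelial keratin, had 265 CPM (262 to 267) against 1.06. KRT17 has near-identical copies in the genome, so part of its UMIs may belong to them or be lost to them. COL1A2, a chain of type I collagen, had 203 CPM (201 to 205) against 0.0343, the latter being 2 UMIs in all kept TC71 cells. PENK, the precursor of the enkephalin peptides, had 146 CPM (144 to 148) against 0.394. As ratios, CHLA9 was 1991-fold (1506 to 2691) above TC71 for CCK, 249.1-fold (194 to 325) for KRT17 and 371-fold (247 to 585) for PENK. For COL1A2 the ratio was 5929 (1641 to 48963), a wide interval set by the 2 UMIs of TC71. On GRCh38, COL1A2 lies at chr7:94394895-94431227, CCK at chr3:42257825-42266185 and KRT17 on chromosome 17.

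Genes detected in CHLA9 and near absent in TC71 were those with at least 10 CPM in CHLA9 and an upper Poisson bound of at most 1 CPM in TC71. There were 63 of them among the 8335 autosomal genes at 10 CPM or more in CHLA9, or 0.756%. The same rule in the other direction gave 154 of 7858 genes, or 1.96%, so CHLA9 had the smaller set. The limit is harder to meet in the shallower library, where it allows 43 UMIs per gene, and the part of depth in the difference was not tested. The 63 genes were chosen on these levels, and what follows describes them without a test. They comprised 60 protein-coding genes and 3 long noncoding RNAs. They ranged from 10.0 to 203 CPM with a median of 21.0, and 11 had no UMI at all in TC71. Together they made up 0.198% of CHLA9 UMIs and 0.00174% of TC71 UMIs. Just inside the limit were NSG2, CTSK and MN1, each with 0.737 CPM in TC71 and an upper bound of 0.993. Just outside it were ZNF486, with an upper bound of 1.01, and CDKN2A, a cell cycle inhibitor with 121 CPM in CHLA9 and 0.805 in TC71. CCK and KRT17 also fell outside, with upper bounds of 1.11 and 1.36.

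**Figure D1:**
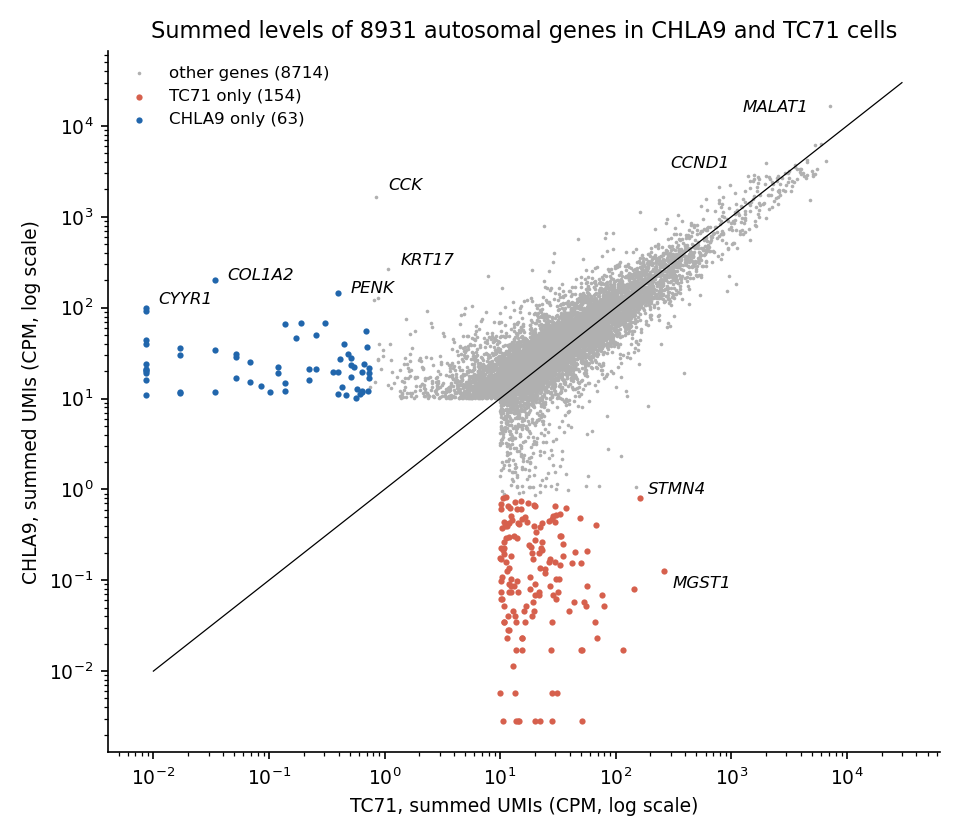
Summed level of each of 8931 autosomal genes with at least 10 CPM in either line, TC71 on the horizontal and CHLA9 on the vertical axis, both in CPM on log scales. A gene with no UMI is drawn at a level below that of 1 UMI, and the line marks equal levels. The 63 CHLA9-only genes sit along the left edge and the 154 TC71-only genes along the bottom, while CCK and KRT17 lie just right of the blue points.

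Genes of the extracellular matrix, the protein scaffold between cells, were among the 63, with COL1A2 and 5 more collagens. COL4A2 had 43.8 CPM (42.8 to 44.8) and COL4A1 had 39.7 (38.8 to 40.7), and neither had a UMI in TC71. Against the floor of 3 UMIs per library, the ratio was 852 for COL4A2 and 773 for COL4A1, with exact lower bounds of 693 and 629. These genes encode the chains of type IV collagen, the network former of basement membranes, and they stand head to head on chromosome 13. COL9A2, of cartilage type IX collagen, had 27.9 CPM against 0.514. COL6A3, of type VI collagen, had 16.2 against 0.223, and COL16A1 had 12.2 against 0.137. MXRA8, a matrix remodelling-associated cell surface protein, had 45.9 CPM against 0.171.

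The 126 bases between the COL4A1 and COL4A2 starts are shown because the genes share them as one promoter and both had no UMI in TC71. They are taken from RefSeq on GRCh38.p14, read on the plus strand toward COL4A2 from chr13:110307158-110307283, with COL4A1 starting on the minus strand at the base before them and COL4A2 at the base after. The capitals mark a CCAAT box, 105 bases before the COL4A2 start. GC made up 80.2% of the bases.
COL4A1-COL4A2: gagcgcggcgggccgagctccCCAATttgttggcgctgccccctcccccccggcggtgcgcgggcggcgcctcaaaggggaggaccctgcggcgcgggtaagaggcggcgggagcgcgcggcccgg

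Secreted and signalling proteins followed. FRZB had 67.7 CPM against 0.189 in TC71, and SFRP2 had 65.5 against 0.137. Both are secreted proteins of the frizzled-related family that bind WNT ligands. PTH1R, the receptor for parathyroid hormone, had 36.6 CPM against 0.703, and the semaphorin SEMA6A, an axon guidance protein, had 22.1 against 0.548. CYYR1, a membrane protein of little known function, had 98.2 CPM (96.8 to 99.7) and no UMI in TC71, and so was at least 1911-fold higher in CHLA9. TMEM132B, another membrane protein, had 92.8 CPM and likewise no UMI in TC71, with a lower bound of 1468.

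Some of the 63 genes encode proteins known from neurons, picked out here after their values were seen and not as a tested group. Of the list of 25 neuronal genes, 1 was among the 63 and 3 were among the 154 TC71-only genes. CRMP1, a cytoskeletal protein of growing axons, had 55.5 CPM against 0.685. SHISA9, an auxiliary protein of glutamate receptors, had 34.4 CPM against 0.0343. BRINP1, a neural cell cycle regulator, had 24 CPM, and GABRA5, a subunit of the GABA receptor, had 21.2. Neither had a UMI in TC71. ELAVL3, a neuronal RNA-binding protein, had 21.2 CPM against 0.223. CACNA1H, a calcium channel subunit, had 27.0 against 0.411. NSG2, a vesicle protein of neurons, had 21.6 against 0.737.

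Transcription factors of several lineages were also among the 63. This was not particular to CHLA9. Of the developmental factor families counted below, 109 genes reached 10 CPM in CHLA9 and 2 were among the 63. In TC71 96 reached it and 6 were TC71-only. Over all autosomal genes the counts were 63 of 8335 and 154 of 7858. SCX, a factor of tendon progenitors, had 35.8 CPM in CHLA9 and 1 UMI in all kept TC71 cells. OTX2, a homeobox factor of the forebrain and eye, had 30.7 CPM (29.9 to 31.6) against 3 UMIs. TP73, a relative of p53, had 24 CPM against 0.668. TBX5, a T-box factor of heart and forelimb, had 11 CPM and no UMI in TC71. PROX1 had 16.8 CPM against 0.0514 and SIM2 had 16.2 CPM against none, both named after their values were seen. The ratio of OTX2 was 598 with an interval of 205 to 2901. The other genes among the highest 30 were TCEA3, EPB41L3, REC8, LINC01405, NLRP2, PLEKHG4B, CPPED1, SLC12A7 and TMEM178B, between 22.5 CPM for TMEM178B and 68.4 for TCEA3.

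**Figure D2:**
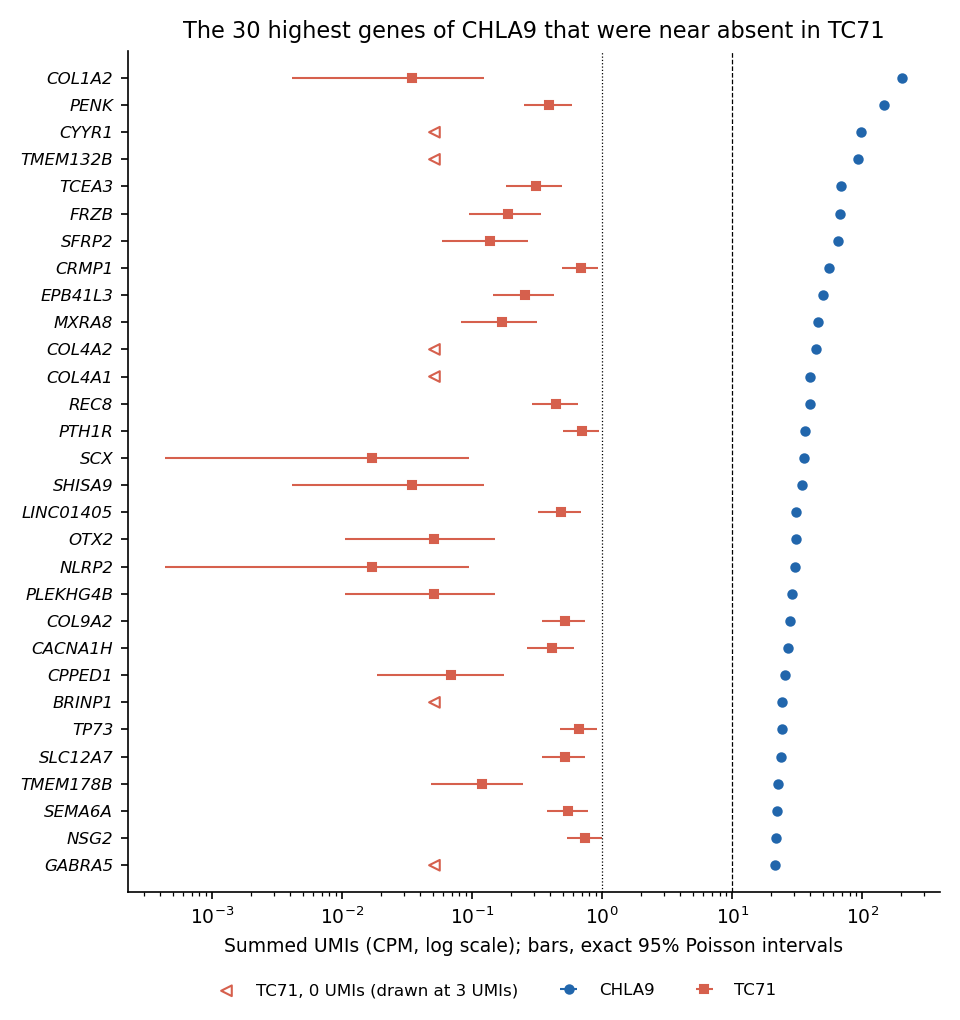
Summed CPM on a log scale, with exact 95% Poisson intervals, of the 30 highest CHLA9-only genes, CHLA9 as circles and TC71 as squares. Open triangles mark genes with 0 UMIs in TC71, drawn at 3 UMIs, and the dashed and dotted lines mark 10 and 1 CPM. Every circle lies above 10 CPM and every square below 1, as the choice of genes fixed, with the TC71 intervals widest where 1 to 4 UMIs were counted.

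The region before the start was searched in the 39 of the 63 genes with a promoter in the RefSeq table used. For each gene the 250 bases upstream of the first listed start were read on both strands. The ETS-type repeat GGAAGGAA was found in 5 of the 39, or 12.8%, and in 2.96% of the 26246 autosomal promoters in the table. These were CYYR1, FBN2, MMP14, ZNF626 and ZNF682. CCAAT was found in 14, or 35.9%, against 32.8% of all, and TATAAA in 1, or 2.56%, against 11.2%. Matches of different motifs were counted separately and may overlap. Median GC content was 68.0% in the 39 promoters and 58.0% in all. The 39 promoters belong to genes at 10 CPM or more in CHLA9, while the background was not matched for level or GC. COL4A1 and COL4A2 share a promoter and were each counted for CCAAT. These are letter matches and do not show binding.

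The sequence upstream of CYYR1 is given because it is the highest of the 5 genes with the repeat, and that of CCK because CCK was the highest of all the line's identity genes. Both are on the minus strand of GRCh38.p14, CYYR1 at chr21:26573287-26573536 and CCK at chr3:42266186-42266435, the latter before the first of 2 listed starts. The capitals mark the repeat, written on the opposite strand and beginning 215 bases before the CYYR1 start. The CCK stretch held none of the 3 motifs. COL1A2, KRT17 and PENK were not in the table.
CYYR1: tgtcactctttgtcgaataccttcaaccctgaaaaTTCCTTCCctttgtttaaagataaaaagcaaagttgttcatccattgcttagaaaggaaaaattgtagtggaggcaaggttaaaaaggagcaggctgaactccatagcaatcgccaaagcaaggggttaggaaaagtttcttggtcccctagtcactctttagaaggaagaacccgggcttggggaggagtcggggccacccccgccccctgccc
CCK: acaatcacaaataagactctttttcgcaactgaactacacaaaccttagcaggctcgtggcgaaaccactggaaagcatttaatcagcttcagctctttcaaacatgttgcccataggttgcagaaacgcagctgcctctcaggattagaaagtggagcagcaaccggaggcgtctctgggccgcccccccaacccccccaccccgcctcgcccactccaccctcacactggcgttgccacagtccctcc

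To read the gene lists, the background over all genes is needed. Of 31942 autosomal genes measured, 8335 reached 10 CPM in CHLA9 and 19992 were under 1 CPM. Of 8931 autosomal genes at 10 CPM or more in either line, 1475, or 16.5%, were at least 2-fold higher in CHLA9, and 767, or 8.59%, were at least 2-fold lower. The median gene detected in both lines was 0.16 higher in CHLA9 on the log2 scale. After scaling by the median of ratios, which sets that median to 0, 1123 genes were higher and 1035 lower, so the share of higher genes among those past 2-fold was 65.8% in CPM and 52.0% after scaling. Over the 7262 genes detected in both lines, log2 levels had a Pearson correlation of 0.891 across genes, which are not independent replicates. Of the 8931 genes at 10 CPM or more in either line, 74.9% lay within 2-fold. The 4 markers, chosen with earlier results of these data known, are counted as higher in the lists that hold them. COL1A2 is in the mesenchymal and collagen lists, and KRT17 in the epithelial and keratin lists. CCK is in the lists of activated fusion targets and of neuropeptides, and PENK in the latter. No counts were made without them.

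Targets that the fusion is known to activate were present in CHLA9 in nearly full number. Of 24 such genes measured, 22 were at 10 CPM or more. Of the 23 tested, 5 were at least 2-fold higher than in TC71 and 3 were at least 2-fold lower, with a median log2 difference of 0.13 in CPM that turned to -0.03 after scaling. CCND1, encoding cyclin D1, had 2511 CPM against 1451. PRKCB, a protein kinase C, had 345 against 183, and the phosphatase inhibitor PPP1R1A had 252 against 206. LIPI, a membrane phospholipase used as an Ewing marker, had 18.6 against 16.3. The higher ones beside CCK were EZH2, the Polycomb methyltransferase, with 442 CPM against 95.6, the factor BCL11B with 217 against 75.9, CALCB with 154 against 39.4, and the muscle and crest factor PAX7 with 94.4 against 22.3. The lower ones were CAV1, of caveolae, with 558 CPM against 1443, the surface antigen STEAP1 with 73.2 against 239, and the homeobox factor NKX2-2 with 9.89 against 34.6. NKX2-2 was the only one of the 8 Ewing markers under 10 CPM in CHLA9. FLI1 itself, which includes fusion transcripts, had 38.2 CPM against 23. Of 12 genes known to be repressed by the fusion, 1 reached 10 CPM, IER3 with 19.9 CPM against 37.3 in TC71.

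Neuropeptide genes differed in both directions. Of 24 precursors and processing enzymes measured, 7 reached 10 CPM in CHLA9, and of 11 tested, 5 were higher and 5 lower. GRP, gastrin-releasing peptide, was high in both lines, with 1017 CPM in CHLA9 and 836 in TC71. NMB, neuromedin B, had 171 CPM against 57.3, and PCSK2, an enzyme that cuts peptide precursors in neuroendocrine cells, had 122 against 25. POMC had 1.09 CPM in CHLA9 and 72.0 in TC71, and NTS, neurotensin, had 0.0457 and 39.2. PAM, the enzyme that amidates peptides such as cholecystokinin, had 0.0743 CPM, or 13 UMIs in all CHLA9 cells, against 14.3 CPM. The peptide precursors at 10 CPM or more in CHLA9 were thus CCK, GRP, NMB, CALCB and PENK.

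Neuronal genes outside the peptides were detected about as often as genes at large. Of 25 measured, 6 reached 10 CPM in CHLA9 and 17 were under 1 CPM. Over all 31942 autosomal genes the counts were 8335 and 19992. Of 10 tested, 3 were higher and 4 lower. UCHL1, a neuronal ubiquitin hydrolase, had 310 CPM against 525 in TC71, and SYT1, a synaptic vesicle protein, had 133 against 222. ELAVL3, SCG2 and NES were the 3 higher ones, NES, the intermediate filament nestin, with 13 CPM against 1.13. STMN4, NEFL, NEFM and GAP43 were lower. NEFL, the neurofilament light chain, had 3 UMIs in CHLA9 against 51.5 CPM, and GAP43, of axon growth cones, had 1 UMI against 31.3 CPM.

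Neural crest factors were mostly higher in CHLA9. These genes specify and mobilise the embryonic crest, which gives rise to both neural and skeletal cells. Of 19 measured, 10 reached 10 CPM, and of 11 tested, 7 were higher and 1 was lower, with a median log2 difference of 1.64. After scaling the counts were 6 and 2. TWIST1, which drives cell migration, had 273 CPM (4.08-fold, 3.95 to 4.22). MSX1, a homeobox factor, had 257 CPM (13.5-fold, 12.7 to 14.3). NGFR, the low-affinity nerve growth factor receptor and a crest surface marker, had 100.3 CPM (20.2-fold, 18.0 to 22.7). PAX3 had 36.9 CPM against 18.3, and it fell under 2-fold after scaling. FOXD3, an early crest factor, was the lower one with 5.90 CPM against 21.8. SOX10, which defines the migrating crest and its glia, had 1 UMI in CHLA9, and TFAP2A had 21.5 CPM against 41.6.

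Developmental transcription factors as a whole had more higher than lower members. The families were taken by name pattern, which also caught 9 genes that are not such factors, among them IDH1 and IDH2. Without those 9, of 118 tested 53 were at least 2-fold higher and 17 lower, with a median log2 difference of 0.71 against 0.22 over all tested genes. With them the counts were 54 and 17 of 126, and 43 and 21 after scaling. POU3F1, a POU factor of neural and epidermal lineages, had 410 CPM against 124. RUNX3 had 254 against 26.5, SOX11 had 253 against 62.5 and PRRX2, a factor of limb mesenchyme, had 164 against 25.4. Larger differences were those of ONECUT2, 68.1 against 2.54, DLX3, 36.2 against 1.71, HAND2, 87.0 against 9.97, and MEIS1, 70.4 against 8.77. Of 39 HOX genes, which set position along the body axis, 19 reached 10 CPM, led by HOXD13 with 87.1 CPM, HOXB7 with 81.9 and HOXB13 with 76.2. Of the 21 tested, 6 were higher and 4 lower, and 4 and 4 after scaling. HOXB9 stood apart among them with 0.149 CPM against 33.2.

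**Figure D3:**
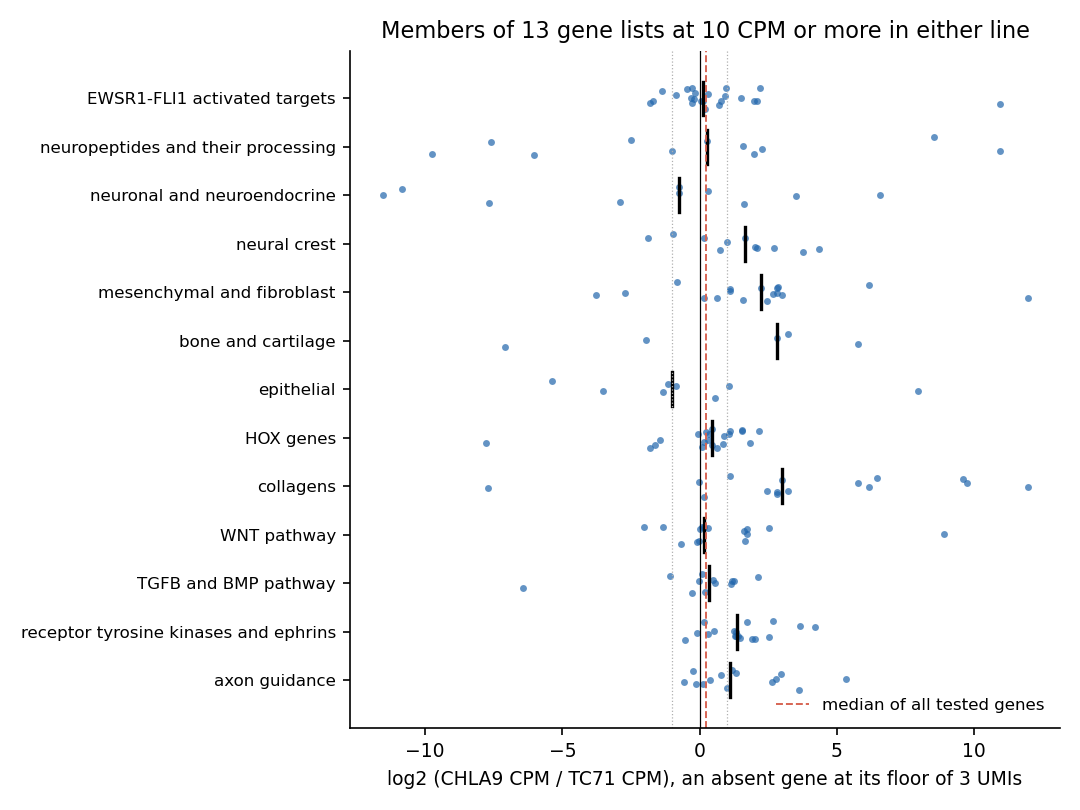
Log2 difference between CHLA9 and TC71 in CPM for the members of 13 gene lists with at least 10 CPM in either line, with each point a gene and each black bar the list's median. An absent gene is placed at its floor of 3 UMIs, the dashed line is the median of all tested genes and the dotted lines mark 2-fold. The collagen, mesenchymal, bone, neural crest, receptor tyrosine kinase and axon guidance medians lie to the right of the 2-fold line. The neuronal and epithelial medians lie to the left of 0. A gene in several lists is drawn in each.

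Mesenchymal genes were mostly higher in CHLA9 by number, with the collagens foremost, though their summed level was 1427 CPM against 1528 in TC71. The mesenchymal list and the bone and cartilage list hold collagens that the collagen list counts again, so these lists are not separate. Of 27 mesenchymal genes measured, 15 reached 10 CPM, and of 17 tested 12 were higher and 2 lower, with 10 and 2 after scaling. Of 42 collagen genes measured, 14 reached 10 CPM, and of 15 tested 12 were higher and 1 was lower, with a median log2 difference of 3.02. After scaling 11 were higher and 1 lower. COL1A1, the partner chain of COL1A2, had 56 CPM against 10.2 (5.51-fold, 5.07 to 6.0). FN1, fibronectin, had 39.7 against 5.50, PDGFRB, a receptor of pericytes and fibroblasts, had 23.2 against 3.62, and the proteoglycan DCN had 13.6 against 2.86. Not all members went this way. VIM, the mesenchymal intermediate filament, had 708 CPM against 1251, SPARC, a matrix protein of bone, had 4.11 against 56.2, and COL19A1 had 0.0514 against 10.9. The 5 fibroblast markers (PDGFRB, DCN, LUM, PDGFRA and POSTN) summed to 41.6 CPM in CHLA9 and 7.80 in TC71, and their part in the mesenchymal counts was not tested. COL5A2 and COL21A1 were within 2-fold, at 43.8 against 39.0 and 40.7 against 41.8. Of 9 laminins, integrins and glypicans tested, 2 were higher and 1 was lower. ITGB2, the leukocyte integrin chain, was the lower one with 22.4 CPM against 106.

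Skeletal genes at 10 CPM or more were few, beside 8335 of 31942 over all autosomal genes. Of 17 bone and cartilage genes measured, 3 reached 10 CPM in CHLA9, and of 5 tested 3 were higher and 2 lower. The 3 were ALPL, the mineralising phosphatase of bone, with 69.6 CPM against 9.82, COL9A3 with 35.5 against 3.84, and COL9A2. SOX9, the cartilage factor, had 6.94 CPM and no UMI in TC71, and SP7, the osteoblast factor osterix, had 6.46 CPM against 1 UMI. DLX5, a homeobox factor of bone, had 0.251 CPM against 34.7. The defining products of mature cartilage and bone were absent or nearly so. ACAN had 3 UMIs in CHLA9, COL2A1 had 0.366 CPM, and IBSP and SPP1 had none.

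KRT17 was the highest of the epithelial genes listed. Of 26 measured, 4 reached 10 CPM in CHLA9 and 16 were under 1 CPM, beside 8335 and 19992 of all 31942 autosomal genes. Of 8 tested, 2 were at least 2-fold higher and 4 lower, and 1 and 5 after scaling. The only higher one after scaling was KRT17, itself a chosen marker. Beside KRT17 the genes at 10 CPM or more were PKP1, a plakophilin of desmosomes, with 153 CPM against 104, CLDN1, a claudin of tight junctions, with 123 against 58.1, and KRT18 with 118 against 296. KRT5 and KRT14, keratins of the same basal layer as KRT17, had 0 and 16 UMIs. EPCAM had 0.0457 CPM and CDH1, E-cadherin, had 1 UMI. The junction genes TJP1 and DSP were lower than in TC71, at 2.42 against 28.0 and 0.263 against 10.8. CLDN1 fell under 2-fold after scaling. Over all 55 keratin genes measured, 3 reached 10 CPM in CHLA9, and the highest, outside this epithelial list, had 393 CPM. Of the 3 keratins tested, 2 were higher and 1 lower, and 1 and 1 after scaling.

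Among signalling genes, receptor tyrosine kinases and ephrins had 13 higher and no lower members of 18 tested, and 13 and 1 after scaling, with a median log2 difference of 1.35. DDR2, a receptor for fibrillar collagen, had 115 CPM against 46.1, EPHA4 had 28.9 against 2.28 and ERBB2 had 32.9 against 5.76. Axon guidance genes had 8 higher and none lower of 14, and 7 and 1 after scaling, with SEMA3C at 53.0 against 8.48. For the WNT pathway 6 of 15 were higher and 2 lower, and the median log2 difference of 0.16 became -0.00 after scaling. Among these FZD1, a WNT receptor, had 79.0 CPM against 23.9, FZD2 had 38.6 against 6.77, and FZD6 had 4.43 against 17.9. The TGFB and BMP pathway had 4 higher and 2 lower of 12, with 2 and 2 after scaling. ID3, an inhibitor of basic helix-loop-helix factors, had 905 CPM against 377, and BMP2, a bone morphogenetic ligand, had 0.137 against 11.9. Of 10 cadherins and protocadherins tested, 4 were higher and 2 lower, and 3 and 2 after scaling, with PCDH8 at 57.6 against 6.55.

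Of the markers of other cell types that a culture could hold, all but those of fibroblasts were under 1 CPM in CHLA9. All 5 endothelial, 5 blood, 4 epithelial, 3 muscle and 2 liver markers were under 1 CPM. KDR, TEK, CD3E, HBB, KRT5 and MYOD1 had no UMI, with an upper bound of 0.0211 CPM each. Of the 5 fibroblast markers, PDGFRB with 23.2 CPM and DCN with 13.6 passed 10 CPM, LUM had 4.76, and POSTN and PDGFRA had 2 and 9 UMIs. Of the longer lists, 4 of 26 epithelial genes reached 10 CPM, led by KRT17 as given above, and 1 of 16 skeletal muscle genes did so (TNNT1, 189 CPM against 152), as did 1 of 10 blood genes (LMO2, 28.8 against 8.23), 2 of 11 pluripotency genes (SOX2, 121 against 73.4, and LIN28B, 14.1 against 54.2), and none of 9 endothelial or 14 liver and endoderm genes.

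The most abundant transcripts of CHLA9 were shared with TC71. Outside mitochondrial and ribosomal protein genes, the highest was the nuclear long noncoding RNA MALAT1 with 16804 CPM against 7172, followed by EEF1A1, the translation elongation factor, with 6262 against 5955. Of the 20 highest genes the lowest in TC71 was HMGN2. Among them HMGN2, a nucleosome-binding protein, was 2111 CPM against 790, NEAT1, the RNA of nuclear paraspeckles, 2259 against 979, and TMSB10, an actin-binding thymosin, 2804 against 1406. PTMA went the other way with 2992 against 5054. The rest were HMGB1, HSP90AA1, ACTG1, TPT1, TUBA1B, TUBB, CCND1, YBX1, FTH1, GAPDH, H3F3A, ACTB, NPM1 and RACK1. CCK had 1671 CPM, below RACK1, the lowest of the 20, with 1927, and the next highest of the marker and CHLA9-only genes was KRT17 with 265.

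In single cells the 4 marker genes were spread in different ways. Each cell was thinned to 5000 UMIs. CCK was then found in 96.7% of CHLA9 cells (96.1 to 97.2), COL1A2 in 63.5% (62.0 to 64.9), KRT17 in 62.6% (61.1 to 64.0) and PENK in 43.1% (41.7 to 44.6). Without thinning the shares were 99.9%, 99.1%, 95.7% and 83.5%. In thinned TC71 cells, CCK was found in 0.521%, KRT17 in 0.405%, PENK in 0.116% and COL1A2 in none. There 3 cells would be 0.174%. PTPRC, a blood marker that these cells should lack, was found in no thinned CHLA9 cell, with an upper bound of 0.0815%.

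COL1A2 came close to even expression. Its mean was 1.06 UMIs per cell and its variance was 1.09 times the mean, where 1 is pure counting, and 36.5% of cells lacked it against 34.6% for a Poisson count. CCK had a mean of 8.42 UMIs, a median of 7 and a maximum of 59, with a variance 4.06 times the mean. Cells without CCK were 3.29% where Poisson counting would leave 0.0221%. The 10% of cells with the most CCK held 24.7% of its UMIs. PENK was the most uneven for its level, with a mean of 0.746, a variance 1.90 times the mean, 56.9% of cells without it against 47.4%, and 46.3% of its UMIs in the top 10% of cells. KRT17 had a variance 1.81 times its mean, and 37.4% of cells lacked it against 26.2%. Among genes of like mean, 3 of 125 had a higher variance to mean ratio than CCK, 10 of 1827 than PENK, 16 of 963 than KRT17 and 335 of 1312 than COL1A2.

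**Figure D4:**
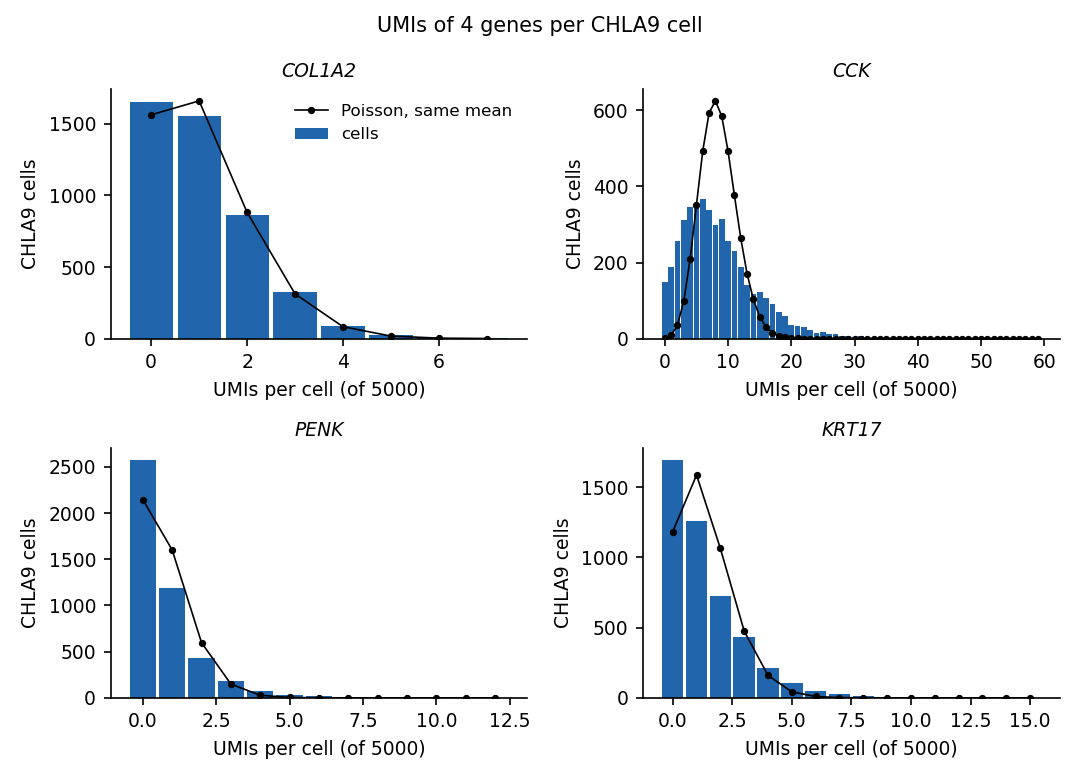
Number of CHLA9 cells, on the vertical axis, with each number of UMIs of COL1A2, CCK, PENK and KRT17 after thinning to 5000 UMIs per cell, as bars, with black points for a Poisson count of the same mean in the 4524 cells. COL1A2 follows its curve closely, while CCK is far wider than its curve and PENK and KRT17 have more cells at 0 and in the tail.

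Over the highest 30 CHLA9-only genes, the variance to mean ratio had a median of 1.06. That is below the ratios of CCK and KRT17, but those genes were not matched to the 30 for mean. It is above the median of 1.02 over 5588 genes of the same range of means, of which 5% exceeded 1.14. The 30 genes were thus not more even than genes of like mean. The lowest were GABRA5 with 0.982, SLC12A7, CPPED1, NLRP2 and COL4A2 with 1.02. The highest were NSG2 with 1.25, OTX2 with 1.28, TP73 with 1.45, SFRP2 with 1.53 and PENK, all of them above 1.14. OTX2 was found in 12.5% of thinned cells where Poisson counting would give 13.8%, and SFRP2 in 25.1% against 28.7%. Across 4524 cells, the 105 pairs among the 15 highest genes had Pearson correlations of thinned log counts from -0.0395 to 0.0656 with a median of 0.002, values too weak in sparse counts to be a finding. CCK and PENK were both found in 41.6% of cells, where independent shares would give 41.7%.

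Taken cell by cell, the line-restricted genes separated CHLA9 from TC71, as sets chosen on these cells would. A thinned CHLA9 cell had a median of 10 UMIs of the 63 CHLA9-only genes (0 to 29) and 0 of the 154 TC71-only genes (0 to 10). A TC71 cell had a median of 0 (0 to 2) and 20 (5 to 44). Of 4524 CHLA9 cells, 4522 had more UMIs of the CHLA9 set, 1 had equal numbers and 1 had more of the TC71 set. That cell had 4 UMIs of the CHLA9 set and 10 of the TC71 set, 62500 UMIs before thinning and 6.02% mitochondrial UMIs. In all, 7 CHLA9 cells had 3 or more UMIs of the TC71 set, and none of them had a barcode shared with the TC71 library. Doublets were not removed, and leaving out the 5% of cells with the most UMIs gave 58 CHLA9-only genes, all of them among the 63.

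**Figure D5:**
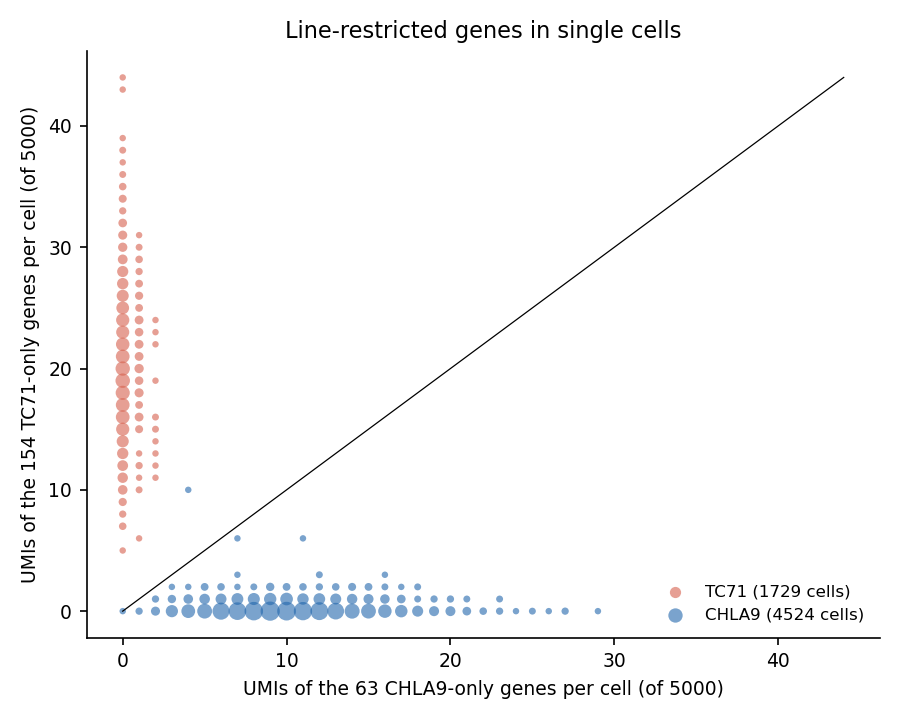
UMIs of the 63 CHLA9-only genes on the horizontal axis and of the 154 TC71-only genes on the vertical axis per cell thinned to 5000 UMIs, with the area of a point growing with the number of cells at that pair of values and the line marking equal numbers. CHLA9 cells lie along the bottom and TC71 cells along the left side, apart from 1 CHLA9 cell with 4 and 10 UMIs above the line.

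What CHLA9 lacked was read from the genes detected in TC71. The highest of the 154 were MGST1, a microsomal glutathione transferase, with 0.126 CPM in CHLA9 and 263 in TC71, and STMN4, a neuronal stathmin, with 0.794 and 162. Then came LY6K, RNF212, SMC1B, a meiotic cohesin subunit with 0.0514 and 79.0 CPM, HMGA2, an oncofetal chromatin protein with 0.0686 and 76.2, PLAGL1, an imprinted zinc finger with 0.0229 and 68.9, and DST. NSD1, the H3K36 methyltransferase gene, had 6 UMIs in all 4524 CHLA9 cells, or 0.0343 CPM (0.0126 to 0.0746), against 66.8 CPM in TC71. The nearest tested genes on its sides on chromosome 5, ZNF346 and MXD3, had 12.6 and 30.9 CPM in CHLA9, while F12, farther along, was also a TC71-only gene with 0.183 CPM in CHLA9 and 12.3 in TC71. PRTFDC1 was the tenth, with 0.211 CPM against 56.6.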

How the data were processed

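The authors aligned and counted the droplet libraries with Cell Ranger 3.1.0 on hg38, per the labels, and deposited raw UMI counts for 33538 genes per barcode, with no normalization. Barcodes were filtered here, and UMIs of kept cells were summed and divided by the library total to give CPM. Of the genes, 425 had no GENCODE 44 match by identifier and were left out, and 31942 were autosomal. Intervals are exact Poisson for CPM and Clopper-Pearson for shares, and a ratio's interval comes from the share of a gene's UMIs in CHLA9. For shares of cells, each cell was thinned to 5000 UMIs (seed 1). Python 3.11.15 with NumPy 2.4.6, SciPy 1.17.1, pandas 2.3.3 and matplotlib 3.10.9 were used, and the steps were tested on simulated counts.

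The members and gene lists were chosen with earlier results of these data known. Named genes were the markers, the 20 highest genes, the 30 highest CHLA9-only genes, list members by level and difference, the 5 most and 5 least even genes and the 10 highest TC71-only genes. Doublets were not removed. Alternatives changed the filters, scaling, pooling, thinning and limits. The other line and the xenografts were not analysed here.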

Additional observations from a re-analysis of the deposited data

How the results depend on the processing

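The number of CHLA9-only genes depended on the limits that define it. It was 139 with detection at 5 CPM and 34 at 20 CPM, and 37 or 103 with near absence at 0.5 or 2 CPM, while the TC71-only genes numbered 304 and 63 at 5 and 20 CPM. Genes at least 2-fold lower in CHLA9 numbered 492 at 20 CPM. The share of CHLA9 barcodes kept was 82.0% with at most 10% mitochondrial UMIs, 84.9% without cells over 3 median absolute deviations from the median and 84.6% without the 5% of cells with the most UMIs. These follow from the limits themselves. The other 32 of these values stayed within 1.5 times or within their interval, the filters on cells and the scaling included. Thinning to 2000 UMIs gave shares of 33.6% for COL1A2, 88.1% for CCK, 21.8% for PENK and 37.7% for KRT17, and another random seed gave 41.4% for PENK. The floor used for an absent gene, 3 UMIs per library, was 0.0171 CPM in CHLA9 and 0.0514 in TC71. The transcription factor list without 9 genes and the division of chromosomes were added after the data were seen. No paired analysis was possible because a single library stands for each line.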

Other observations

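Some line-restricted genes lay near each other, in both lines. Within 1 Mb there were 8 neighbouring pairs among the 63 CHLA9-only genes and 21 among the 154 TC71-only genes. The share over all genes was not computed. The CHLA9 pairs included CPPED1 and SHISA9 on chromosome 16 with a gap of 97711 bases, TCTN1 and LINC01405 on chromosome 12 with 271159 bases, and ZNF682 and ZNF626 on chromosome 19. Chromosome 19 held 9 of the 63 CHLA9-only genes and 3 of the 154 TC71-only genes, and chromosome 6 held 0 and 18. Of the genes at 10 CPM or more in CHLA9, 598 were on chromosome 19 and 413 on chromosome 6. Genes at 10 CPM or more in TC71 were not counted by chromosome, so the TC71-only counts have no matching share. On chromosome 19 the CHLA9-only genes included the zinc finger genes ZNF677, ZNF626, ZNF682 and ZNF257, and PEG3, an imprinted zinc finger gene with 20.2 CPM in CHLA9 and no UMI in TC71. These genes were named after their values were seen.

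The median log2 difference between the lines also varied by chromosome over genes at 10 CPM or more in both. It was 0.68 over 427 genes of chromosome 17, 0.55 over 790 of chromosome 1 and 0.46 over 469 of chromosome 19, and -0.14 over 383 of chromosome 6, where the median over all such genes was 0.16. Chromosomes 1, 6, 7, 8, 9, 12, 16 and 17 were divided near their centromeres after the data were seen. Chromosome 16 had the widest gap between its sides and is the extreme of these. Its median was 0.61 over 172 genes before 37 Mb (quartiles 0.21 and 0.85). After that position it was -0.65 over 139 genes (quartiles -0.98 and -0.14). Chromosome 17 had 1.02 over 98 genes before 24 Mb and 0.58 over 329 after. Chromosome 1 had 0.49 before 125 Mb and 0.59 after, and chromosome 9 had 0.12 on both sides of 45 Mb. These are differences between 1 library of each line.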
